A study of Mus musculus with 16 samples.

Results

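The interleukin-6 (IL-6) family, its receptor chains, its transcription factor STAT3 and its feedback inhibitor SOCS3 were followed in primary mouse mammary fibroblasts. The 10 genes IL6, LIF, IL11, CLCF1, OSMR, LIFR, IL6RA, IL6ST, STAT3 and SOCS3 were chosen by symbol from the 18132 genes of the expression table, and all 10 had a row. Fibroblasts came from the inguinal glands of 129S6 females of 8 to 10 weeks, either MEKK1+/+ or MEKK1-/-, and were grown in DMEM with 10% fetal bovine serum. MEKK1, encoded by MAP3K1, is a kinase upstream of the JNK and ERK pathways. Cells of each genotype were left in growth medium (untreated) or held for 8 h in medium conditioned by MDA-MB-231 human breast tumor cells (conditioned medium, CM). There were 4 Illumina Mouse 8 arrays for each of the 4 groups, 16 in all. The study took 3 mice of each genotype and 4 replicate cultures for each condition, without tying a culture to a mouse. Every limma and permutation p value below thus measures the spread between cultures, which may be partly technical.

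Cytokines of this family signal through receptor complexes that share the chain gp130, the product of IL6ST. Interleukin-6 and interleukin-11 first bind a receptor of their own, whereas LIF and oncostatin M bring LIFR or OSMR together with gp130. The receptor-bound kinases JAK1, JAK2 and TYK2 then phosphorylate STAT3, and STAT3 switches on SOCS3, which shuts the receptor off again. Fibroblasts are a known source of IL6, LIF and IL11, and in breast tissue these cytokines can act on both stroma and epithelium. IL6 itself is a classical target of NF-kB, C/EBP and AP-1 factors, and its mRNA is short-lived.

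The sequences upstream of IL6, LIF, IL11 and SOCS3 are shown because these 4 genes rose with CM when MEKK1-/- arrays were compared in pairs. They were also chosen because their promoters held motif letters of the factors just named, so that the 4 hold such letters follows from the choice. Each run is the 250 bases before the start of the RefSeq transcript in GRCm38.p6, written from 5′ to 3′ on the strand of the gene, with motif matches in capitals. The IL6 run lies at chr5:30012864-30013113 on the plus strand, the LIF run at chr11:4257318-4257567 on the plus strand, the IL11 run at chr7:4778142-4778391 on the minus strand and the SOCS3 run at chr11:117969367-117969616 on the minus strand.
IL6: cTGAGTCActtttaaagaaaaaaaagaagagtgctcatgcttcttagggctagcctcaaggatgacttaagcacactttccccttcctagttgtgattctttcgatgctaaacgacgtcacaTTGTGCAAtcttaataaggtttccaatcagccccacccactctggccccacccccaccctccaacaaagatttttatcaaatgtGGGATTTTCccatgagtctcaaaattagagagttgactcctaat
LIF: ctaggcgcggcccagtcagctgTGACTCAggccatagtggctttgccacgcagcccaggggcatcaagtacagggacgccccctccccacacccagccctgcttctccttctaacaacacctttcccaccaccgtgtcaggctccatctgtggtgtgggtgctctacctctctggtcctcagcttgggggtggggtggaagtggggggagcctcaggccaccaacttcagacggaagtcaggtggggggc
IL11: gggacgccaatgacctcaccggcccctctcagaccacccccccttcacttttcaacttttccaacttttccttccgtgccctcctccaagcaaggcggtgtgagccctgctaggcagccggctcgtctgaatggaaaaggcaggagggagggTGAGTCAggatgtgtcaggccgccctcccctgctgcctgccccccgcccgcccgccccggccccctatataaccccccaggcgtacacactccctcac
SOCS3: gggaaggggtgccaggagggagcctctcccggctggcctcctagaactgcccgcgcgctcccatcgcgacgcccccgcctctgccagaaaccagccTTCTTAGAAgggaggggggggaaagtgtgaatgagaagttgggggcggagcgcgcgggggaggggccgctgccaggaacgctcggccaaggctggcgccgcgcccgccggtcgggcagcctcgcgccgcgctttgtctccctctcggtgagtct
The letters searched on both strands were TTCNNNGAA for STAT, GGGANTTTC for NF-kB, TGAGTCA or its reverse complement TGACTCA for AP-1, and TTGCGCAA or TTGCACAA for C/EBP. IL6 held 3 matches that did not overlap, TGAGTCA at 249 to 243 bases before the start, TTGTGCAA (the reverse complement of TTGCACAA) at 128 to 121 bases and GGGATTTTC at 44 to 36 bases. LIF held the AP-1 letters at 228 to 222 bases and IL11 at 98 to 92 bases before the start. SOCS3 held a STAT match, TTCTTAGAA, at 154 to 146 bases. Of 32851 mouse promoters of the same length, 7.02% held the STAT letters, 0.941% the NF-kB letters, 4.46% the AP-1 letters and 1.06% the C/EBP letters. Of the 10 genes, 9 were in the promoter table (not CLCF1) with 11 promoters, and the other 5 genes and the second IL11 promoter held none of these letters. A match is a description of the letters and not a measured binding site.

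The values are array intensities, put on the log2 scale and quantile normalized between arrays, so that a difference of 1 unit is 2-fold. The deposited array medians ran from 114 to 170.1 intensity units before this step, and the log2 values of arrays of the same group correlated at 0.979 to 0.996. A gene was taken as above background on an array when it passed the 99th percentile of 1075 olfactory receptor genes there, a level of 7.20 to 7.34 on the normalized log2 scale, which 6926 of all genes passed on every array. MAP3K1 had a higher mean signal in cells labelled MEKK1-/- than in the other genotype. The log2 difference was 0.53 in untreated cells (adjusted p = 0.465 by limma) and 0.33 with CM (adjusted p = 0.605). All untreated MEKK1-/- arrays (8.06 to 8.41) lay above all untreated MEKK1+/+ arrays (7.51 to 7.95), as for 2.59% of all genes, and with CM the arrays overlapped. The genotype thus rests on the labels. Of the fibroblast markers 11 of 12 were measured and all 11 passed the background level on at least 4 arrays. Macrophage markers passed there for 13 of 18 genes, epithelial markers for 6 of 8, endothelial markers for 2 of 7, lymphocyte markers for 1 of 7 and fat cell markers for 0 of 6.

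Above background on all 16 arrays were 6 of the 10 genes, namely IL6, IL11, OSMR, IL6ST, STAT3 and SOCS3. LIF passed on 13 arrays, and the 3 arrays that did not pass were all untreated. CLCF1, a cytokine that signals through the ciliary neurotrophic factor receptor, lay between 6.77 and 7.06 and passed on 0 arrays. LIFR lay between 6.83 and 7.18 and passed on 0 arrays, and IL6RA, the interleukin-6 binding chain, lay between 6.91 and 7.30 and passed on 1 array. These 3 genes were not well above background, so their differences between groups are not read as fold changes.

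**Figure D1:**
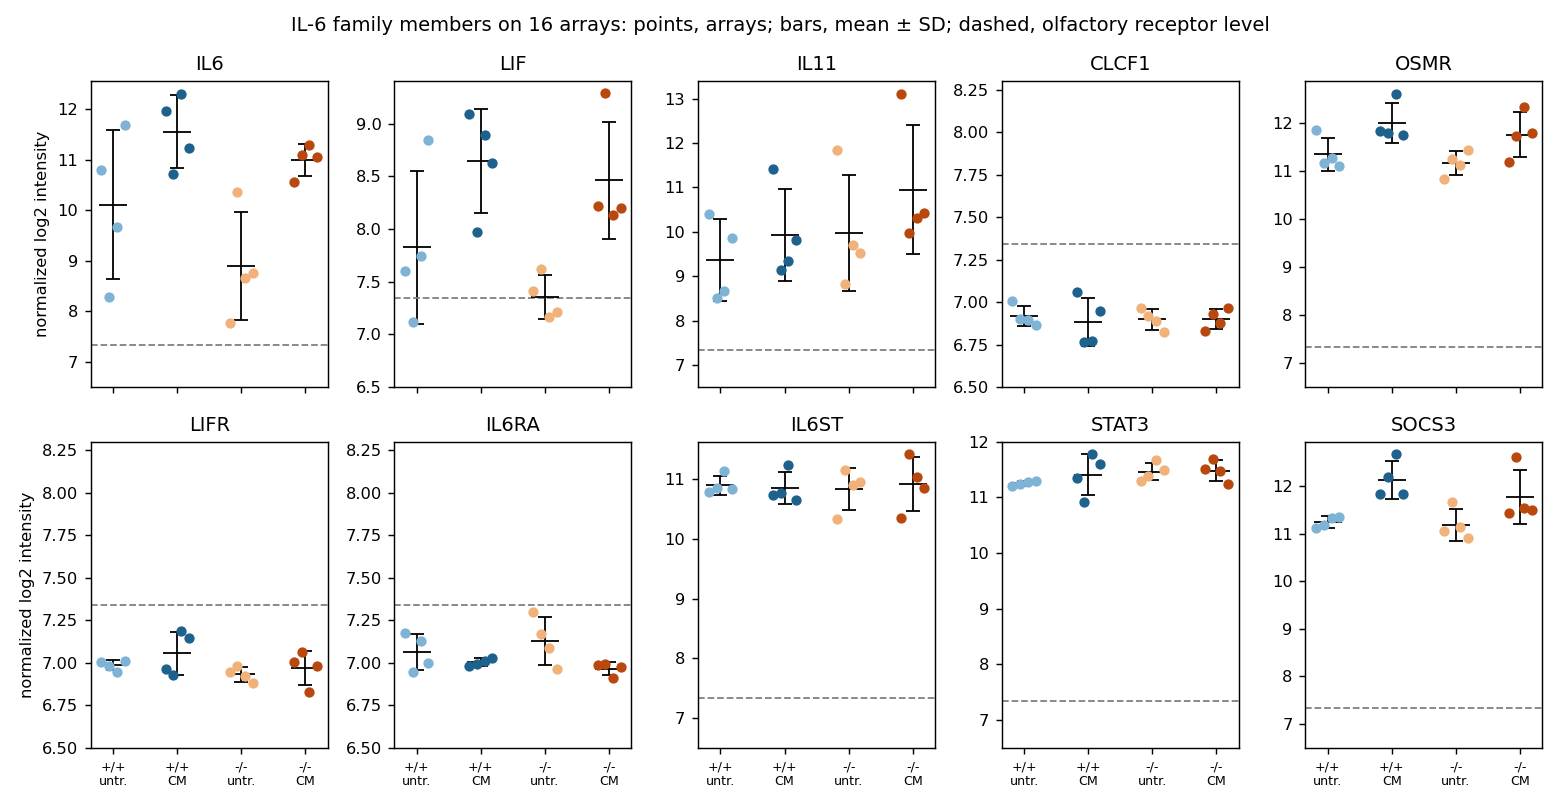
Normalized log2 intensity (vertical axis of each panel) of the 10 genes on the 16 arrays, with 1 point per array, bars for the mean ± SD of 4 arrays, and a dashed line at 7.34, the highest background level of any array. IL6, LIF, IL11, OSMR and SOCS3 have higher means with CM in both genotypes, STAT3 has nearly level ones, and CLCF1, LIFR and IL6RA lie below the line.

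Across the 7 detected genes, the ligand IL6 had the largest difference with CM in both genotypes, and the shared chain IL6ST and the factor STAT3 had the smallest. In MEKK1+/+ cells CM went with a difference in means of 1.45 for IL6, 0.82 for LIF, 0.88 for SOCS3 and 0.65 for OSMR on the log2 scale. In MEKK1-/- cells the same genes differed by 2.10, 1.11, 0.58 and 0.60. By limma, adjusted over the whole table by Benjamini-Hochberg, 0 of the 10 passed an adjusted p of 0.05 in MEKK1+/+ cells, where 5.01% of all genes passed, and 0 of 10 passed in MEKK1-/- cells, where 4.69% passed. At an unadjusted limma p under 0.05 there were 4 of 10 in MEKK1+/+ cells (IL6, LIF, OSMR and SOCS3), beside 16.8% of all genes, and 5 of 10 in MEKK1-/- cells (the same 4 and IL6RA, which was not well above background), beside 16.2%. A z-score test, the kind of test named in the study, called 3 of 10 in each genotype (IL6, LIF and SOCS3 in MEKK1+/+ cells, IL6, LIF and IL11 in MEKK1-/- cells), beside 1.29% of all genes in MEKK1+/+ and 1.28% in MEKK1-/- cells. This test takes its error from the spread of the group differences over all genes and not from the cultures. The median difference over the 10 genes was 0.36 in MEKK1+/+ and 0.33 in MEKK1-/- cells, and over all genes it was -0.0018 and -0.0042. The deviations of MEKK1-/- arrays with the same replicate number correlated at 0.219 to 0.505, against -0.04 to 0.576 in MEKK1+/+ cells. The CM arrays of replicate 3 in different genotypes, which cannot share a mouse, correlated at 0.234. The treated array of the same number was the best match for untreated MEKK1-/- replicates 1 and 2 but not 3 and 4. In MEKK1+/+ cells it was the best match for replicates 2, 3 and 4 but not 1. The MEKK1-/- arrays were also compared in pairs, a pairing chosen from these same data, given by no label and not established by these correlations. This paired fit blocked the arrays of both genotypes by replicate number, so MEKK1+/+ pairs shared in its error. With it 4 of the 10 genes rose in MEKK1-/- cells, IL6, LIF, IL11 and SOCS3. Over all genes 7.93% were called in either direction and 4.02% called higher. With the MEKK1-/- arrays fitted alone in pairs, 5 of the 10 rose (these 4 and OSMR), beside 8.43% of all genes called. These calls depend on the choice of pairing.

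**Figure D2:**
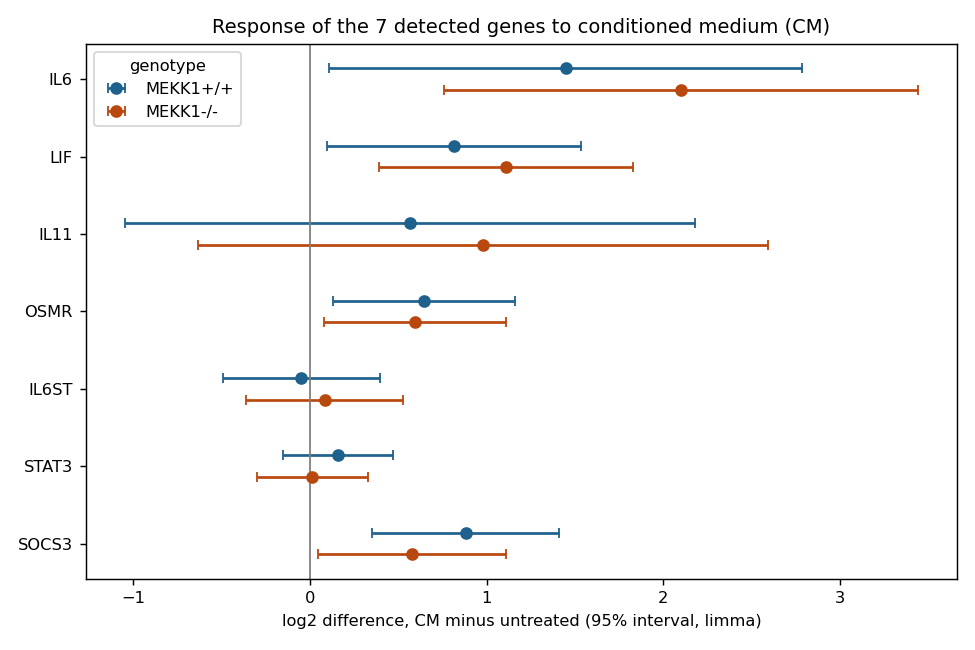
Difference in normalized log2 intensity, CM minus untreated (horizontal axis), for the 7 detected genes in each genotype, with points for the limma estimate over 4 arrays against 4 and bars for the 95% interval, without pairing. The intervals of IL6, LIF, OSMR and SOCS3 lie above 0 in both genotypes before adjustment, and those of IL11, IL6ST and STAT3 include 0.

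IL6, the cytokine that names the family, varied widely between untreated cultures. In untreated MEKK1+/+ cells its normalized log2 intensity was 10.79, 8.29, 9.66 and 11.69 on replicates 1 to 4. With CM it was 11.97, 10.72, 12.31 and 11.22. The untreated cultures thus spread over more than 3 units, the highest of them above 2 of the 4 treated ones, and the groups overlapped. The mean went from 10.11 ± 1.47 to 11.55 ± 0.72 (SD, n = 4 each), a 2.73-fold difference with a log2 difference of 1.45 (SE 0.63, 95% interval 0.11 to 2.79), with adjusted p = 0.250 by limma and p = 0.143 by a 2-sided exact permutation test. Of the arrays with the same number, replicates 1, 2 and 3 were higher with CM and replicate 4 differed by -0.47.

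In untreated MEKK1-/- cells IL6 was 7.78, 10.36, 8.67 and 8.77 on replicates 1 to 4. With CM it was 10.55, 11.09, 11.29 and 11.05. All 4 treated arrays lay above all 4 untreated ones, and the treated cultures lay closer together than the untreated ones. The mean went from 8.89 ± 1.07 to 10.99 ± 0.31 (SD, n = 4 each), a 4.29-fold difference. The log2 difference was 2.10 (SE 0.63, 95% interval 0.76 to 3.44), with adjusted p = 0.0752 by limma and p = 0.0286 by the exact permutation test, the smallest value that 4 arrays against 4 can give. With the replicate number as a block within genotype the SE was 0.47 and the adjusted p = 0.0219, a rise that every pair showed, by 2.77, 0.73, 2.62 and 2.28 for replicates 1 to 4.

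LIF, leukemia inhibitory factor, followed the same order of groups at its own level. In untreated MEKK1+/+ cells LIF was 7.61, 7.12, 7.74 and 8.84 on replicates 1 to 4, and with CM 9.09, 7.97, 8.89 and 8.62. Replicate 4 was again the highest untreated culture and the groups overlapped. The difference was 0.82 on the log2 scale (SE 0.34, 95% interval 0.10 to 1.53, adjusted p = 0.215 by limma, p = 0.0857 by the exact permutation test). Without the untreated MEKK1+/+ replicate 4 it was 1.15 with adjusted p = 0.0328. It fell to 0.58 without the untreated MEKK1+/+ replicate 2. Across removals of a single array, the adjusted p by limma ranged from 0.0328 to 0.491.

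In untreated MEKK1-/- cells LIF was 7.41, 7.62, 7.17 and 7.21, close to the background level, which replicates 3 and 4 did not pass. With CM it was 8.22, 9.29, 8.14 and 8.20. The groups did not overlap, and replicate 2 stood above the other 3 treated arrays, which lay within a narrow band. The difference was 1.11 (SE 0.34, 95% interval 0.39 to 1.83), with adjusted p = 0.0789 by limma and p = 0.0286 by the exact permutation test. In the paired fit the SE was 0.23 and the adjusted p = 0.0164, with a rise in 4 of 4 pairs that ran from 0.81 to 1.67. The untreated side of the LIF difference lay near the background level, so the difference is not read as a fold change.

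IL11, a cytokine also made by fibroblasts, differed widely between cultures of the same group. In MEKK1+/+ cells it was 10.41, 8.51, 8.68 and 9.85 on untreated replicates 1 to 4 and 11.42, 9.13, 9.35 and 9.81 with CM. The MEKK1-/- values were 11.84, 8.83, 9.70 and 9.51 untreated and 13.11, 9.98, 10.30 and 10.42 with CM. Replicate 1 was the highest array in each of the 4 groups, a pattern that 96 of all genes (0.529%) shared and that no other member showed. The groups overlapped in both genotypes, and the difference with CM was 0.57 in MEKK1+/+ cells (SE 0.76, 95% interval -1.04 to 2.18, adjusted p = 0.814) and 0.98 in MEKK1-/- cells (SE 0.76, 95% interval -0.63 to 2.59, adjusted p = 0.625). Without the CM array of replicate 1 these differences were 0.07 and 0.26, and without the untreated array of replicate 1 they were 0.91 and 1.60.

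Within pairs of the same number the IL11 differences were closer to each other. The 4 MEKK1-/- pairs differed by 1.27, 1.14, 0.60 and 0.91. In the paired fit IL11 rose there by 0.98 with SE 0.15 and adjusted p = 0.00386, the lowest of the 10 genes. The 2 MEKK1-/- arrays of replicate 1 also stood apart in epithelial markers, whose summed intensity over 8 genes was 8773 untreated and 10350 with CM, against 1053 to 1967 on the other 6 MEKK1-/- arrays and 976 to 1559 on the MEKK1+/+ arrays. Of these markers KRT5 passed the background level on 0 arrays and KRT19 and CLDN7 on all 16. Between the genotypes, 7 of the 8 markers had a higher mean in MEKK1-/- cells, with a median difference of 0.78 untreated and 0.72 with CM. By limma 0 of the 8 passed in either, and 0 lay under an unadjusted 0.05, beside 9.27% and 8.09% of all genes. The z-score test called 4 of the 8 in each, beside 1.22% and 1.13%. The part of these markers in the IL11 level and in its difference between the genotypes was not tested. With replicate 1 left out of both MEKK1-/- groups, the paired IL11 difference was 0.88 with adjusted p = 0.0184.

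**Figure D3:**
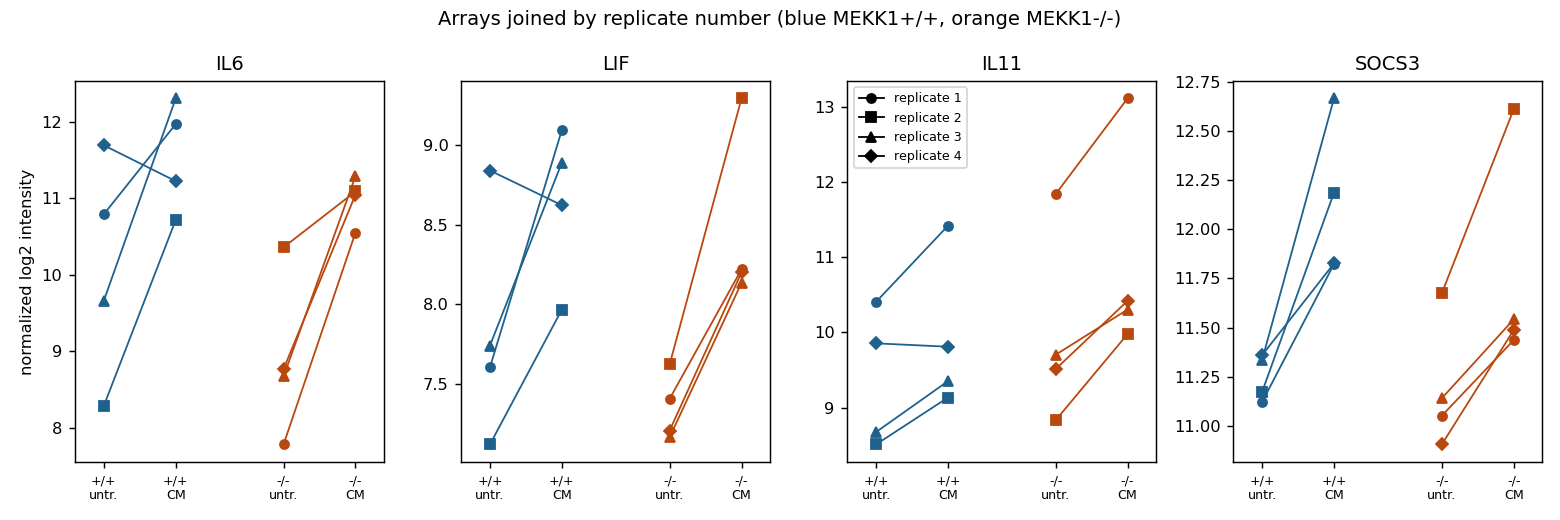
Normalized log2 intensity (vertical axis) of IL6, LIF, IL11 and SOCS3 on each array, with a line joining the untreated and CM arrays of the same replicate number and genotype. In MEKK1-/- cells all 4 lines rise for each gene, in MEKK1+/+ cells the line of replicate 4 falls for IL6, LIF and IL11, and replicate 1 is the highest for IL11 throughout.

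Of the receptor chains, OSMR, which pairs with gp130 to bind oncostatin M, had the largest difference. It was 11.86, 11.17, 11.26 and 11.11 on untreated MEKK1+/+ replicates 1 to 4 and 11.83, 11.80, 12.61 and 11.75 with CM. The MEKK1-/- values were 10.84, 11.25, 11.12 and 11.43 untreated and 11.18, 11.72, 12.34 and 11.79 with CM. Replicate 3 was the highest treated array in both genotypes, and the groups overlapped in both. The difference was 0.65 in MEKK1+/+ cells (SE 0.24, 95% interval 0.13 to 1.16, adjusted p = 0.163 by limma, p = 0.114 by the exact permutation test) and 0.60 in MEKK1-/- cells (SE 0.24, 95% interval 0.08 to 1.11, adjusted p = 0.216, exact p = 0.0857). OSMR was higher with CM in 4 of 4 MEKK1-/- pairs, by 0.34 to 1.22. It missed the threshold in the paired fit of both genotypes (adjusted p = 0.107) and passed it when the MEKK1-/- arrays were fitted alone in pairs (adjusted p = 0.0462), where 5 of the 10 genes rose beside 8.43% of all genes called.

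IL6ST, the chain common to the family, lay between 10.33 and 11.43 on the 16 arrays. Its difference with CM was -0.05 in MEKK1+/+ cells (95% interval -0.49 to 0.40) and 0.08 in MEKK1-/- cells (95% interval -0.36 to 0.53), both smaller than the SD of any group. STAT3 lay between 10.92 and 11.77, with a difference of 0.16 in MEKK1+/+ cells (95% interval -0.15 to 0.47) and 0.01 in MEKK1-/- cells (95% interval -0.30 to 0.33). The sign of both STAT3 differences turned when the values were used as deposited. The intervals allow changes of up to about 0.5 in either gene, so a small change was not detectable with these arrays.

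SOCS3, the inhibitor that STAT3 induces, separated treated from untreated MEKK1+/+ cells without overlap. It was 11.12, 11.17, 11.33 and 11.36 on the untreated replicates 1 to 4. With CM it was 11.82, 12.19, 12.67 and 11.83. The lowest treated array lay above the highest untreated one by more than the spread among the untreated cultures, and all 4 same-number pairs were higher. The difference was 0.88 on the log2 scale (SE 0.25, 95% interval 0.35 to 1.41), a 1.84-fold one, with adjusted p = 0.0551 by limma and p = 0.0286 by the exact permutation test. It fell to 0.70 without the MEKK1+/+ CM array of replicate 3. Across removals of a single array, the adjusted p by limma ranged from 0.0110 to 0.148. The MEKK1-/- arrays enter this comparison only through the shared estimate of the spread. Without the untreated replicate 2 array of that genotype SOCS3 passed the threshold (adjusted p = 0.0468), as it did without the CM one (adjusted p = 0.0110). With the replicate number as a block within genotype it also passed (adjusted p = 0.00378), as did IL11 (adjusted p = 0.0496), beside 8.17% of all genes, although the numbers were not taken to pair MEKK1+/+ arrays.

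In MEKK1-/- cells SOCS3 was 11.05, 11.67, 11.14 and 10.90 untreated and 11.44, 12.61, 11.54 and 11.49 with CM. Replicate 2 was the highest of both groups, and the untreated array of replicate 2 lay above 3 of the 4 treated ones. The difference was 0.58 (SE 0.25, 95% interval 0.05 to 1.11, adjusted p = 0.253 by limma, p = 0.114 by the exact permutation test). In the paired fit SOCS3 rose, with SE 0.13 and adjusted p = 0.0259, and by 0.39 to 0.94 in 4 of 4 pairs. With replicate 2 left out of both MEKK1-/- groups the paired SOCS3 difference was 0.46 with adjusted p = 0.112 and the LIF difference 0.92 with adjusted p = 0.0739, whereas IL6 (adjusted p = 0.0176) and IL11 (adjusted p = 0.0211) passed, beside 5.13% of all genes. With replicate 1 left out in the same way, IL6 did not pass (difference 1.88, adjusted p = 0.0847), and LIF, IL11 and SOCS3 did, beside 6.64% of all genes.

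Arrays that did not overlap between treated and untreated cells were found for 1 of the 10 genes in MEKK1+/+ cells, SOCS3, beside 9.7% of all genes in either direction and 4.68% higher with CM. Such a separation was found in MEKK1-/- cells for 2 of the 10, IL6 and LIF, beside 10.4% of all genes in either direction and 4.9% higher. The order of the 4 group means was the same for IL6, LIF, OSMR and SOCS3, with MEKK1+/+ CM highest, then MEKK1-/- CM, MEKK1+/+ untreated and MEKK1-/- untreated. For IL11 both MEKK1-/- groups came first, and IL6ST and STAT3 had orders of their own. Of the 21 gaps between neighbours in the order over the 7 detected genes, 0 were larger than the larger SD of the 2 groups, so no neighbouring pair stood apart beyond its spread.

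Whether loss of MEKK1 altered the family was asked first in untreated cells. IL6 had a mean of 8.89 in MEKK1-/- and 10.11 in MEKK1+/+ cells, a difference of -1.21 (SE 0.63, 95% interval -2.55 to 0.13, adjusted p = 0.564 by limma, p = 0.257 by the exact permutation test). Macrophage markers were also lower in the untreated MEKK1-/- cells, with 14 of 18 differences below 0 and a median of -0.65, and their part in the IL6 difference was not tested. LIF differed by -0.48 (95% interval -1.19 to 0.24) and IL11 by 0.61 (95% interval -1.0 to 2.22), and the IL11 difference was -0.01 without the untreated MEKK1-/- replicate 1. Epithelial markers were higher in the untreated MEKK1-/- cells for 7 of 8 genes, and their part in the IL11 difference was not tested. STAT3 was higher on all 4 MEKK1-/- arrays (11.30, 11.39, 11.67 and 11.48) than on any MEKK1+/+ array (11.20, 11.23, 11.27 and 11.29), with a difference of 0.21 (adjusted p = 0.662 by limma, p = 0.0286 by the exact permutation test), but the sign turned with the values as deposited (-0.08) and with median scaling (-0.10). By limma 0 of the 10 genes passed, beside 0.0% of all genes, and at an unadjusted 0.05 there were also 0 of 10, beside 9.27% of all genes. IL6 was called by the z-score test, 1 of the 10, beside 1.22% of all genes. STAT3 was the only member whose arrays did not overlap, beside 4.61% of all genes in either direction and 2.59% higher in MEKK1-/- cells.

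With CM, IL6 differed between the genotypes by -0.56 (95% interval -1.90 to 0.78), SOCS3 by -0.36 (95% interval -0.89 to 0.17), LIF by -0.18 (95% interval -0.90 to 0.54) and OSMR by -0.24 (95% interval -0.76 to 0.28). IL11 differed by 1.03 (95% interval -0.59 to 2.64), by 0.31 without the MEKK1-/- CM array of replicate 1, the array with the epithelial marker sum of 10350, and by 1.52 without the MEKK1+/+ CM array of replicate 1. By limma 0 of the 10 genes passed, beside 0.00552% of all genes, and at an unadjusted 0.05 there were again 0 of 10, beside 8.09%. IL11 was called by the z-score test, 1 of the 10, beside 1.13% of all genes, and 0 of 10 had arrays that did not overlap, beside 4.17% of all genes. In the interaction, the CM response in MEKK1-/- cells minus that in MEKK1+/+ cells, IL6 gave 0.65 (95% interval -1.24 to 2.55), LIF 0.29 (95% interval -0.72 to 1.31), IL11 0.41 (95% interval -1.86 to 2.69), OSMR -0.05 (95% interval -0.78 to 0.68) and SOCS3 -0.30 (95% interval -1.05 to 0.45). By limma 0 of 10 passed, beside 0.0% of all genes, 0 of 10 lay under an unadjusted 0.05, beside 2.61%, and 1, IL6, was called by the z-score test, beside 0.403%. The interaction intervals of IL6 and IL11 include 2-fold in either direction, so a difference of that size between the 2 responses was not detectable here.

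Macrophage markers varied between the arrays on which these cytokines were read. Their summed intensity over 18 genes ran from 37418 to 101875 in untreated MEKK1+/+ cells, 24190 to 67653 in MEKK1+/+ cells with CM, 13539 to 70134 in untreated MEKK1-/- cells and 14871 to 43144 in MEKK1-/- cells with CM. The array with the highest sum of its group was also the highest in IL6 in 1 of the 4 groups (untreated MEKK1-/-, replicate 2) and in SOCS3 in 2 of the 4 (both MEKK1-/- groups, replicate 2). Over the 4 arrays of each group, the median log2 level of these markers correlated with IL6 at r = 0.640 in untreated MEKK1+/+ cells. This r was 0.945 in MEKK1+/+ cells with CM, 0.773 in untreated MEKK1-/- cells and -0.582 in MEKK1-/- cells with CM. In the same order r was 0.214, 0.983, 0.967 and 0.677 for LIF and -0.182, 0.097, 0.919 and 0.592 for SOCS3. ITGAM, FCER1G, MSR1 and PTPRC passed the background level on 0 arrays, while CSF1R, CD14, LYZ2, TYROBP and CTSS passed on all 16. The part of these markers in the IL6, LIF and SOCS3 levels was not tested. In such cultures fewer macrophages and less RNA per macrophage cannot be told apart. Between the genotypes, the marker differences of MEKK1-/- against MEKK1+/+ cells had a median of -0.65 untreated (14 of 18 below 0) and -0.60 with CM (16 of 18 below 0). By limma 0 of the 18 passed between the genotypes, 6 untreated and 5 with CM lay under an unadjusted 0.05, beside 9.27% and 8.09% of all genes, and 9 of 18 were called in each by the z-score test, beside 1.22% and 1.13%. In either CM comparison 0 of the 18 markers passed by limma, 0 lay under an unadjusted 0.05, and 0 in MEKK1+/+ and 1 in MEKK1-/- cells were called by the z-score test.

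Genes that surround the family in the pathway were read from 4 lists. Of the other ligands and receptors, 10 of 13 were measured and 5 passed the background level on at least 4 arrays. CTF1 (cardiotrophin-1) and IL11RA1, the interleukin-11 receptor, passed on all 16 arrays, OSM, oncostatin M itself, on 8, EBI3 on 9 and IL27RA on 4. By limma 0 of these 10 passed with CM in either genotype, beside 5.01% of all genes in MEKK1+/+ and 4.69% in MEKK1-/- cells. Under an unadjusted 0.05 lay 1 in MEKK1+/+ cells, beside 16.8% of all genes, and 2 in MEKK1-/- cells, beside 16.2%. By the z-score test 0 were called in either, beside 1.29% and 1.28%.

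The list of JAK-STAT kinases, factors and inhibitors had 27 of 27 genes measured. In MEKK1+/+ cells 2 rose and 1 fell with CM, and in MEKK1-/- cells 2 rose and 3 fell, beside 2.27% of all genes higher and 2.75% lower in MEKK1+/+ and 2.18% higher and 2.51% lower in MEKK1-/- cells. JAK2, a kinase bound to the receptors beside JAK1 and TYK2, rose in both, by 1.07 (SE 0.19, adjusted p = 0.00529) in MEKK1+/+ and 0.95 (SE 0.19, adjusted p = 0.0104) in MEKK1-/- cells. TYK2, a related kinase, rose by 0.35 in MEKK1+/+ cells (adjusted p = 0.0432) and STAT5A by 0.45 in MEKK1-/- cells (adjusted p = 0.0173). PTPN11, the phosphatase SHP-2 that binds gp130 at the site SOCS3 uses, fell in both, by 0.32 (adjusted p = 0.0105) and 0.30 (adjusted p = 0.0159). STAT6, which serves interleukin-4, fell by 0.23 (adjusted p = 0.0279) and PIAS3, a STAT3 inhibitor, by 0.32 (adjusted p = 0.0404) in MEKK1-/- cells. The median over the list was 0.03 in MEKK1+/+ and 0.01 in MEKK1-/- cells. In the paired fit of MEKK1-/- cells 4 rose (JAK2, TYK2, STAT5A and ADAM17) and 2 fell (PIAS3 and PTPN11), beside 4.02% and 3.91% of all genes. With the same block in MEKK1+/+ cells JAK2 and TYK2 rose and PTPN11 fell.

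Of 30 known STAT3 target genes, 27 were measured. BCL6, a transcriptional repressor, rose in both genotypes, by 0.45 (SE 0.07, adjusted p = 0.00177) in MEKK1+/+ and 0.39 (SE 0.07, adjusted p = 0.00441) in MEKK1-/- cells. BCL3, an NF-kB partner, rose by 0.88 in MEKK1-/- cells (adjusted p = 0.0469), and TNFRSF12A, the receptor of TWEAK, fell by 1.35 (adjusted p = 0.00149) and 1.23 (adjusted p = 0.00256). These were 1 up and 1 down of the 27 in MEKK1+/+ cells, beside 2.27% of all genes higher and 2.75% lower. In MEKK1-/- cells they were 2 up and 1 down, beside 2.18% and 2.51%. The median over the list was 0.12 in MEKK1+/+ and 0.09 in MEKK1-/- cells. The acute-phase genes LCN2 and SAA3 had the widest differences without passing, 2.19 (adjusted p = 0.0836) and 1.86 (adjusted p = 0.592) in MEKK1+/+ and 2.41 (adjusted p = 0.0575) and 3.60 (adjusted p = 0.187) in MEKK1-/- cells. In the paired fit of MEKK1-/- cells 7 rose and 2 fell (BCL3, CEBPB, BCL6, TIMP1, VEGFA, LCN2 and LBP against TNFRSF12A and KLF4), and with the same block in MEKK1+/+ cells 8 rose and 2 fell (BCL3, PIM3, BCL6, TIMP1, IL4RA, VEGFA, LCN2 and LBP against TNFRSF12A and KLF4), beside 4.02% of all genes higher and 3.91% lower in MEKK1-/- and 3.94% and 4.22% in MEKK1+/+ cells.

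Of 23 regulators of IL6 transcription and mRNA decay, 21 were measured. In MEKK1+/+ cells 1 rose with CM, NFKB2, an NF-kB subunit, by 0.93 (SE 0.19, adjusted p = 0.0113). In MEKK1-/- cells 4 rose and 1 fell, beside 2.18% and 2.51% of all genes (2.27% higher in MEKK1+/+ cells). These were NFKB2 by 1.28 (SE 0.19, adjusted p = 0.00152), the NF-kB inhibitor NFKBIA by 1.89 (SE 0.50, adjusted p = 0.0442), NFKBIZ, a nuclear cofactor of NF-kB at the IL6 gene, by 2.02 (SE 0.45, adjusted p = 0.0173), and ZC3H12A, the RNase that degrades IL6 mRNA, by 1.97 (SE 0.40, adjusted p = 0.0101). ZFP36, which directs AU-rich mRNAs to decay, fell by 0.79 (SE 0.12, adjusted p = 0.00164). In MEKK1+/+ cells NFKBIZ differed by 1.32 (adjusted p = 0.120) and ZC3H12A by 1.13 (adjusted p = 0.134), and the interaction was 0.70 for NFKBIZ and 0.84 for ZC3H12A (adjusted p = 1.00 each), so the 2 genotypes were not shown to differ. The median over the list was 0.18 in MEKK1+/+ and 0.12 in MEKK1-/- cells. In the paired fit of MEKK1-/- cells 8 rose and 1 fell, beside 4.02% and 3.91% of all genes. With the same block in MEKK1+/+ cells 4 rose and 0 fell, beside 3.94% and 4.22%, and the difference between the genotypes in these counts was not tested.

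**Figure D4:**
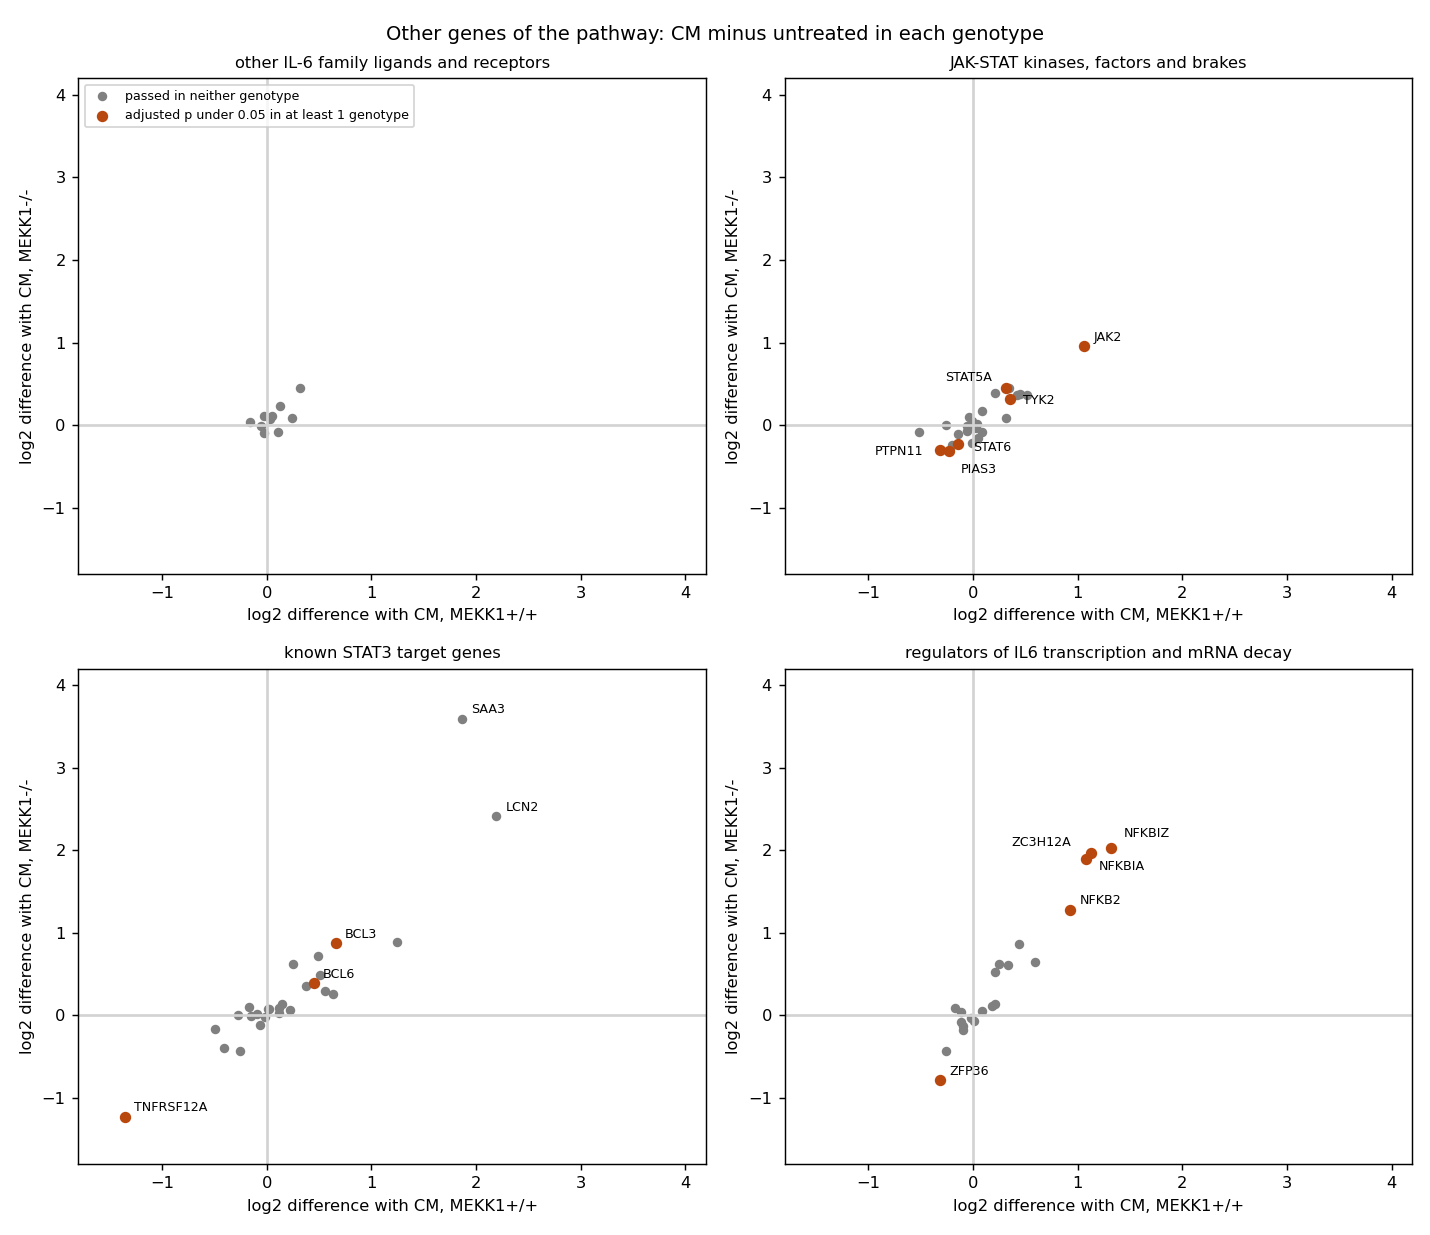
Log2 difference with CM in MEKK1+/+ cells (horizontal axis) against that in MEKK1-/- cells (vertical axis) for the measured genes of the 4 pathway lists, 1 point per gene, colored where the adjusted limma p was under 0.05 in at least 1 genotype without pairing. JAK2, NFKB2 and BCL6 lie in the upper right, PTPN11 and TNFRSF12A in the lower left, and LCN2 and SAA3 are far out but did not pass.

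Between the genotypes, 0 of the 83 distinct genes of these lists passed by limma, in untreated cells or with CM. In untreated cells 13 lay under an unadjusted 0.05, beside 9.27% of all genes, and 9 were called by the z-score test, beside 1.22%. With CM these were 11, beside 8.09%, and 5, beside 1.13%. In the interaction 0 passed by limma, with 3 under an unadjusted 0.05, beside 2.61% of all genes, and 4 called by the z-score test, beside 0.403%.

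Over the 16 arrays, the levels of 8798 genes that passed the background level on at least 4 arrays were set against each of 3 members by Pearson correlation. The genes most like IL6 were NFKBIZ (r = 0.982), ADORA2B, an adenosine receptor (r = 0.960), and LOC100044702 (r = 0.946). Those most like LIF were HAS1, a hyaluronan synthase (r = 0.949), SLCO3A1, an organic anion transporter (r = 0.941), and NAGLU, a lysosomal glucosaminidase (r = 0.934). Those most like SOCS3 were LBP, the lipopolysaccharide-binding protein (r = 0.959), GPR146 (r = 0.901) and ELL (r = 0.891). The 16 points share their 4 groups, their cultures and the normalization, and each r is the highest among many, so it describes these arrays alone.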

How the data were processed

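The authors deposited array intensity on a linear scale, 1 value per gene symbol and array. Per the labels a core facility normalized it, and the normalization, the background treatment and the joining of probes are not given in the sources used here. The array medians differed, so the deposited intensity was put on the log2 scale without a pseudocount and quantile normalized between arrays. One limma model (3.58.1, R 4.3.3) with lmFit and eBayes held all 4 groups (12 residual degrees of freedom), and 5 comparisons were adjusted by Benjamini-Hochberg over all 18132 genes, with a threshold of 0.05. Each member was also tested by 2-sided exact permutation of 4 arrays against 4 in 4 comparisons, 40 tests whose p values were left unadjusted. Precision is limited by how many arrays there are. The fit was tested on simulated data. Groups and replicate numbers came from the labels. No label says what a replicate number marks. The deviations of same-numbered MEKK1-/- arrays correlated at 0.505, 0.403, 0.219 and 0.251, all over 0.1, so these numbers were taken to pair the arrays, from the data alone. In MEKK1+/+ cells they were -0.04, 0.485, 0.120 and 0.576, so there the arrays were not taken as paired. Same-numbered arrays of different genotypes, which cannot share a mouse, correlated at up to 0.234 (replicate 3 with CM). A value over 0.1 thus does not mark a pair by itself. The paired fit used the replicate number within genotype as a block, so MEKK1+/+ arrays were blocked as well and shared in its error. A z-score test, the kind the study's methods name, compared each gene's mean z-scores between groups by a normal approximation. Its error was the SD of these differences over all genes. Other alternatives were the values as deposited, median scaling, a pseudocount of 16, a background filter, a trended robust fit, the compared groups alone, the block across all groups and leaving out each array. No array was left out otherwise. The members, the gene lists and the tests were chosen with earlier results of these data known, so a result known before is not independent evidence. The rule for named genes was all 10 members, MAP3K1, list genes past the threshold with CM (at most 10 per list), and the 3 genes most correlated with IL6, LIF and SOCS3. LCN2, SAA3, the list genes named from the paired fit and the cell type markers were named after their values were seen. Promoters are from RefSeq, and motifs were searched in Python 3.11.15. One result is not reported here.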

Additional observations from a re-analysis of the deposited data

Results flagged for a closer look

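Within a group of 4 arrays, an array was singled out when its gap to the nearest other array, as a share of the range of the group, exceeded Dixon's 95% critical value for 4 samples. Of the 40 groups tested, 4 had such an array, and chance alone singles out about 1 in 20. The MEKK1-/- replicate 2 array with CM was far above the other 3 for LIF (9.29) and for SOCS3 (12.6). The MEKK1-/- replicate 1 array with CM was far above the other 3 for IL11 (13.1). The MEKK1+/+ replicate 3 array with CM was far above the other 3 for OSMR (12.6).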

How the results depend on the processing

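The number of members past the threshold was 0 in all 5 comparisons, and these alternatives moved it. The z-score test gave 1 in untreated cells between genotypes (IL6), 1 with CM between genotypes (IL11), 3 with CM in each genotype and 1 in the interaction (IL6). In MEKK1+/+ cells with CM, SOCS3 alone (1) passed among genes above background on at least 4 arrays, with the compared groups alone, with a trended robust fit and with the replicate block across all groups, and 2 passed (SOCS3 and IL11) with the replicate block within genotype. In MEKK1-/- cells 2 passed (IL6 and LIF) among genes above background and with the compared groups alone, and 4 passed with the replicate block within genotype. Chosen after seeing the data were the block on MEKK1-/- arrays alone, which gave 5, and the block within genotype without MEKK1-/- replicate 1 or replicate 2 in both groups, which gave 3 and 2. Leaving out each array in turn gave 0 to 1 members in MEKK1+/+ cells (LIF without untreated MEKK1+/+ replicate 4, SOCS3 without either MEKK1-/- replicate 2 array) and 0 to 2 in MEKK1-/- cells (IL6 without untreated MEKK1+/+ replicate 2 or untreated MEKK1-/- replicate 2, IL6 and LIF without untreated MEKK1+/+ replicate 4), and 0 in the other comparisons. The causes were not tested. The replicate block changed no other call of a member. As a check of the pairing, untreated arrays correlated best with the treated array of their own number for 3 of 4 MEKK1+/+ and 2 of 4 MEKK1-/- pairs.

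As deposited, the median gene shifted by 0.28 between genotypes with CM, by -0.28 with CM in MEKK1+/+ cells and by 0.29 in the interaction. The following differences, none past the threshold, changed sign. As deposited these were CLCF1 (0.027) and STAT3 (-0.083) between genotypes untreated, LIFR (0.22) and IL6RA (0.27) between genotypes with CM, LIFR (-0.20) and STAT3 (-0.28) with CM in MEKK1+/+ cells, CLCF1 (-0.00499) and STAT3 (-0.073) in MEKK1-/- cells, and OSMR (0.29), LIFR (0.22), IL6RA (0.19), STAT3 (0.21) and SOCS3 (0.043) in the interaction. With median scaling these were CLCF1 (0.00696) and STAT3 (-0.10) between genotypes untreated, IL6ST (-0.17) and STAT3 (-0.18) with CM, CLCF1 (-0.0072) and STAT3 (-0.075) with CM in MEKK1-/- cells, and OSMR (0.0046) in the interaction. In z-score units they were CLCF1 (0.0046) between genotypes untreated and STAT3 (-0.00147) with CM in MEKK1-/- cells. With MEKK1-/- replicate 1 left out of both groups STAT3 was -0.049, and with replicate 2 left out STAT3 was -0.081 and CLCF1 -0.0023, with or without the block. Leaving out each array in turn changed the sign within these ranges. Between genotypes untreated they were IL11 -0.011 to 0.99, CLCF1 -0.042 to 0.0101, IL6ST -0.17 to 0.10 and SOCS3 -0.22 to 0.041. Between genotypes with CM they were CLCF1 -0.022 to 0.075, IL6ST -0.10 to 0.26 and STAT3 -0.094 to 0.19. With CM in MEKK1+/+ cells they were CLCF1 -0.091 to 0.0059 and IL6ST -0.18 to 0.029, and in MEKK1-/- cells CLCF1 -0.023 to 0.026, IL6ST -0.085 to 0.27 and STAT3 -0.058 to 0.095. In the interaction they were LIF -0.043 to 0.53, IL11 -0.30 to 1.04, CLCF1 -0.0033 to 0.094, OSMR -0.24 to 0.15, LIFR -0.074 to 0.0155 and IL6ST -0.037 to 0.32. Signal near background limits untreated LIF and CLCF1, LIFR and IL6RA, whose values here are not read as fold changes.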
